A study of Homo sapiens with 9 samples.

Results

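The splicing factor and RNA-binding families described here are the SRSF, TRA2, HNRNP, RBM, SF1 and SF3, U2AF and CLK genes. They were taken by symbol alone, with no measured value: every row of the expression table whose name is one of these family names followed by its number or letter, without the 61 names that end in P plus digits, as those of HNRNP pseudogenes do. The rule gave 89 genes of 32997 in the table, namely 37 RBM, 22 HNRNP, 12 SRSF, 10 SF1 and SF3, 4 CLK, 2 U2AF and 2 TRA2 genes. The families themselves were chosen with earlier results of these data known. RNA was sequenced from ES-2, a human ovarian cancer cell line, in 9 libraries from 3 groups of 3. The groups were cells with OTUB2 overexpression, cells with SNX29P2 overexpression and cells with an empty vector, all grown without further treatment in RPMI-1640 with serum. The OTUB2 protein removes ubiquitin from other proteins, and SNX29P2 is a pseudogene related to SNX29. The labels do not say whether a group is 1 clone or a pool, how the constructs were introduced, or whether replicates were grown apart, so each p-value reflects the spread of these libraries alone, which may be technical. Each library carries a number, 1 to 3, and the labels do not say what a shared number stands for.

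Early in the removal of an intron SF1 binds its branch point and the U2AF dimer its end. The U2 particle, whose SF3A and SF3B subunits clamp the branch site, then takes the place of SF1. Which sites are used is tuned by proteins on the exon and intron: SR proteins (SRSF) and the related TRA2 proteins usually promote the use of nearby sites, while HNRNP proteins often repress them, and the RBM genes are a mixed group named for their RNA-recognition motif. CLK kinases phosphorylate SR proteins, and many SR, HNRNP, TRA2 and CLK genes adjust their own messages by splicing them into forms that are degraded or kept in the nucleus.

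The libraries held 38504854 to 48551215 reads in genes, and the values are RPKM, reads per kilobase of gene length, scaled to the reads of the library. OTUB2 reached 37.6, 42.6 and 38.4 RPKM in its own group and lay at 1.04 to 1.31 RPKM in the vector libraries. SNX29P2 reached 41.0, 55.1 and 47.6 RPKM in its own group and lay at or below 0.0665 RPKM in the vector libraries. OTUB2 replicate 1 stood apart in globin and leukocyte messages: HBA2 was at 952 RPKM, S100A9 at 8.54 and PTPRC at 0.332, and 0.109% of its reads lay in globin genes, against no more than 86 globin reads in any of the other 8 libraries. Vector replicate 2 stood apart in its G2/M genes, whose median lay 0.56 below the mean of the 9 libraries on the log2 scale. The keratins KRT7, KRT8 and KRT18 were at 25.7 to 141 RPKM, whereas EPCAM was at or below 0.0192 and the ovarian marker PAX8 at 0.149 to 0.421 RPKM. The summed markers, in OTUB2, SNX29P2 and vector libraries in this order, were 278 to 286, 247 to 270 and 254 to 288 RPKM for epithelium, and 7.16 to 8.03, 7.75 to 8.74 and 8.09 to 9.24 RPKM for ovarian lineage. Leukocyte markers, mostly CD68, summed to 31.2 to 40.7, 28.8 to 33.1 and 31.2 to 32.6 RPKM, endothelial markers, mostly CDH5, to 22.2 to 22.9, 20.7 to 22.7 and 17.9 to 23.9 RPKM, and stromal markers, mostly COL1A1, to 49.99 to 69.9, 46.3 to 65.6 and 65.3 to 86.8 RPKM. Erythroid markers summed to 0 to 1204, 0 to 0.0714 and 0.0767 to 2.501 RPKM.

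ES-2 cells expressed nearly the whole set. Of the 89 genes, 82 reached 0.5 RPKM in at least 3 libraries and were tested, 56 averaged at least 10 RPKM and 8 at least 100 RPKM, and all 89 together took 0.929 to 1.00% of the summed RPKM of a library. The 7 genes not tested were RBM8B, RBM44, RBM47, RBM20, RBM11, HNRNPCL1 and SRSF12. RBM20, a splicing factor of heart muscle, was at 0 in 5 of the libraries and at most 0.00861 RPKM elsewhere, and RBM8B, annotated in GENCODE release 29 as a processed pseudogene, reached 0.646 RPKM. The HNRNP rows with such pseudogene names summed to 21.8 to 25.6 RPKM.

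**Figure D1:**
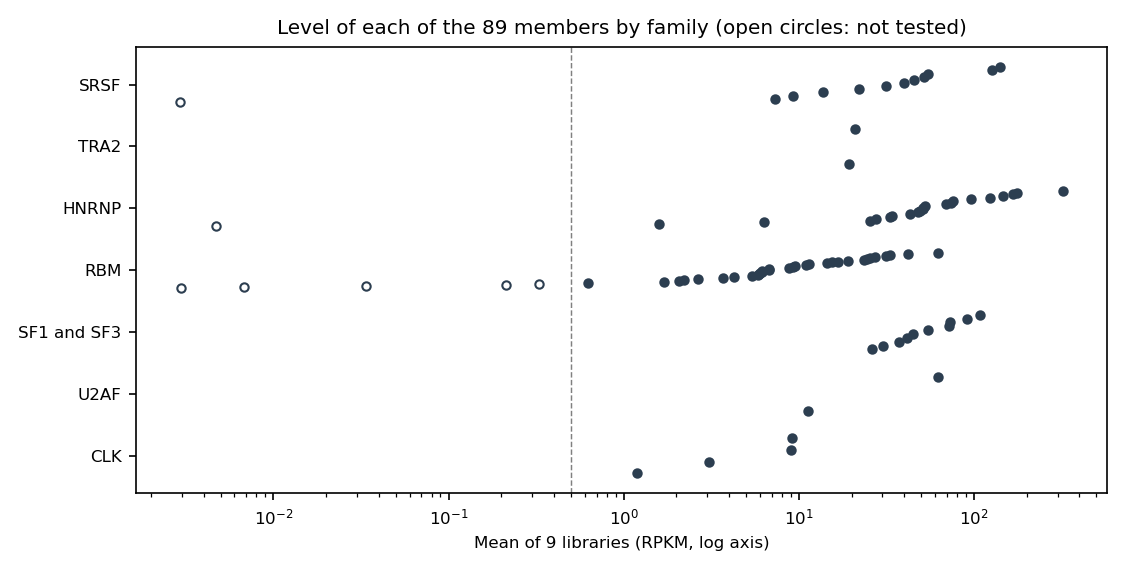
Mean RPKM over 9 libraries (log axis) of each of the 89 genes, 1 point a gene, by family; open circles are the 7 genes that were not tested and the dashed line marks 0.5 RPKM. HNRNPA1 is the highest point at 321.8 RPKM, all 10 SF1 and SF3 genes lie above 26 RPKM and all 4 CLK genes lie below 10 RPKM.

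The HNRNP family held the most abundant messages. HNRNPA1 (chromosome 12, 54280193 to 54287088, GRCh38), which packages nascent RNA and represses exons, was at 303, 318 and 330 RPKM in OTUB2 libraries, 309, 331 and 331 in SNX29P2 libraries and 325, 310 and 340 in vector libraries. HNRNPK, a poly(C)-binding protein, followed at 178, 177 and 179 RPKM with OTUB2, 184, 178 and 181 with SNX29P2 and 179, 158 and 180 with the vector. The groups overlapped for both genes. In the GENCODE 29 transcripts, 27.4% of the 75-base words of HNRNPA1 recur in other genes, mostly its pseudogenes, and 44.2% of those of HNRNPA1L2 recur mostly in HNRNPA1, so reads of these rows may have been assigned to either.

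SRSF2 and SRSF1 led the SR proteins, although 57.9% of the 75-base words of SRSF1 recur in other genes, mostly AC015813.2. SRSF2 averaged 138 ± 22.0 RPKM with OTUB2, 138 ± 19.8 with SNX29P2 and 144 ± 45.3 with the vector, and SRSF1 averaged 126 ± 7.24, 134 ± 10.1 and 121 ± 24.8 RPKM in these groups (SD, n = 3). The other 9 tested SRSF genes averaged 7.30 to 54.7 RPKM over all libraries, and the related TRA2B and TRA2A averaged 21.0 and 19.3 RPKM.

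Among the factors of branch-site recognition, the small U2 subunit SF3B5 was highest at 119, 102 and 118 RPKM with OTUB2, 118, 102 and 103 with SNX29P2 and 104, 96.8 and 107 with the vector. SF3B4 averaged 91.6 ± 0.931, 92.0 ± 3.61 and 91.2 ± 3.69 RPKM in the same groups (SD, n = 3). U2AF2, the large U2AF subunit that reads the polypyrimidine tract, averaged 62.3 RPKM over all libraries and U2AF1, the small subunit that reads the intron's last bases, 11.2 RPKM. That ratio cannot be read as it stands, since 90.6% of the 75-base words of U2AF1 recur in other genes, mostly its near-identical copy U2AF1L5, whose own row held 1.84 to 2.26 RPKM. RBM3, a cold-inducible RNA-binding protein, led the RBM genes at 62.2 RPKM, followed by RBM14, a coactivator also found in paraspeckles, at 41.8 RPKM. CLK1 and CLK2 averaged 9.10 and 9.0 RPKM, CLK3 and CLK4 3.06 and 1.20 RPKM.

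The median spread between libraries of 1 group was smaller in the families than over all genes. The median SD within groups was 0.110 for the 82 tested genes on the log2(RPKM + 0.1) scale, 0.155 for all 16533 genes tested and 0.147 for the 15166 of these within the same range of levels. That range runs from RBM24 at 0.627 to HNRNPA1 at 322 RPKM on average, with a member median of 25.8 RPKM. Levels were not matched within it, and the part of abundance in this difference was not tested. Vector replicate 2 was the lowest of the 9 libraries for 31 of the 82 genes, 37.8%, whereas it was the lowest for 18.7% of all tested genes. For 12 of the 21 tested HNRNP genes it was the lowest, and SNX29P2 replicate 2 was the lowest for 0 of the 82, where it was the lowest for 10.2% of all tested genes, and the highest for 18, 22.0% beside 12.7%.

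**Figure D2:**
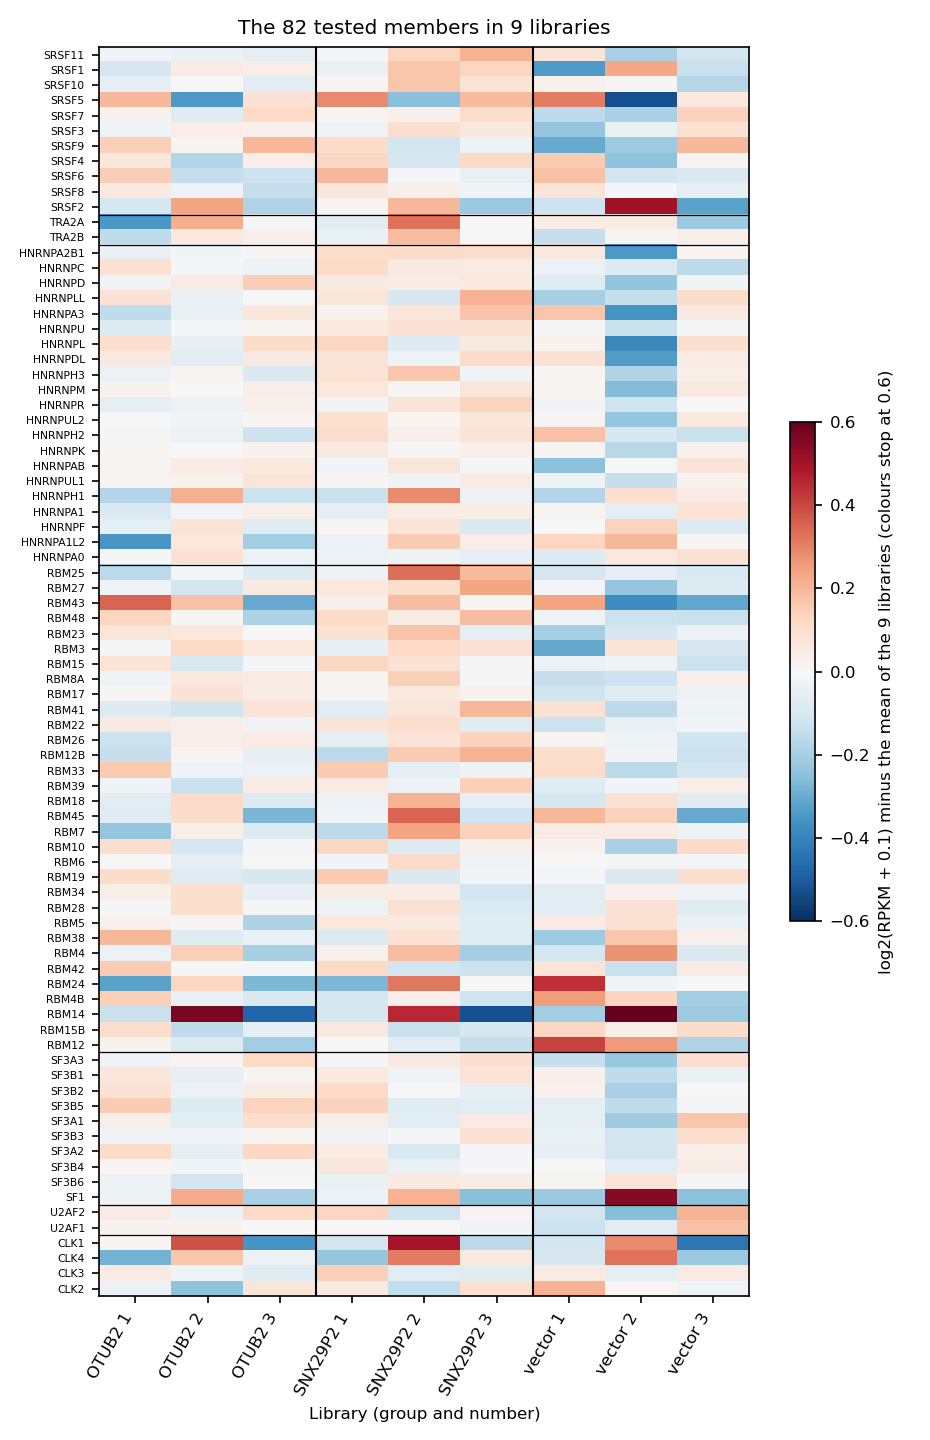
Each row is 1 of the 82 tested genes and each column 1 library, with OTUB2 left, SNX29P2 in the middle and the vector right; colour is log2(RPKM + 0.1) minus the gene's mean over the 9 libraries, red above and blue below it, and black lines part groups and families. Vector replicate 2 is blue down most of the HNRNP block, and RBM14, CLK1, SF1 and SRSF2 are red and SRSF5 blue in the library numbered 2 of every group.

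The first comparison asked which of these genes differ between OTUB2 overexpression and the vector. None of the 82 passed the test (limma on log2(RPKM + 0.1), Benjamini-Hochberg adjusted p under 0.05 over 16533 genes), where 0.0181% of all genes did, 3 genes in all. The smallest adjusted p of a member was 0.720, and voom on recovered reads also called 0. By family, 15 of 21 HNRNP, 8 of 11 SRSF, 8 of 10 SF1 and SF3 and 17 of 32 RBM genes had a positive log2 fold change, and 3 of 4 CLK genes a negative one. These counts rested on single libraries: without vector replicate 2, 8 of 21 HNRNP genes (median -0.01, beside 0.05 with all libraries), 6 of 10 SF1 and SF3 genes (0.02 beside 0.06) and 2 of 4 CLK genes were positive, and without the libraries numbered 2, 6 of 21 HNRNP genes were (-0.02). Under quantile normalization 5 of 11 SRSF genes (median -0.01, beside 0.03) and 43 of the 82 were positive. The median over the 82 was 0.03, beside 0.01 over all genes, and 52 of the 82 were positive, 63.4% beside 52.0% of all genes. Without the libraries numbered 2 the median was -0.00 and 41 of 82 were positive, and without vector replicate 2 it was 0.01 and 42 were positive. Without OTUB2 replicate 1, the library with globin messages, the median was 0.04 and again 0 members passed. In that fit 1 member had an unadjusted p under 0.05, beside 806 of all 16533 genes.

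HNRNPD (chromosome 4, 82352498 to 82374503), also called AUF1, which binds AU-rich elements and speeds or slows decay of their messages, was the 1 member of 82 with an unadjusted p under 0.05, where 6.73% of all genes had one, 3.62% higher and 3.10% lower. It was at 51.6, 54.2 and 58.0 RPKM with OTUB2 and 49.9, 44.4 and 51.8 RPKM with the vector. The groups overlapped, the log2 fold change was 0.17 (95% interval 0.01 to 0.32) and the limma adjusted p was 0.720. Among members averaging at least 1 RPKM, the largest positive value belonged to SRSF9, an SR protein, at 49.7, 45.5 and 51.7 RPKM with OTUB2 against 36.5, 38.7 and 51.4 RPKM with the vector (log2 fold change 0.23, adjusted p = 0.788), although 46.2% of its exon bases are also exons of GATC on the opposite strand. RBM3 had a log2 fold change of 0.17, and RBM43, at 1.71 RPKM on average, 0.22. At the other end, HNRNPA1L2 had -0.28 and RBM12 -0.25 (limma adjusted p = 0.773 and 0.788), followed by CLK2 at -0.13 and RBM15B, which recruits the RNA methylation machinery, at -0.12. RBM12 was at 25.5, 23.8 and 21.7 RPKM with OTUB2 and 33.4, 30.005 and 22.2 RPKM with the vector, with vector replicate 3 inside the OTUB2 range.

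The OTUB2 libraries lay wholly above the vector libraries for 3 of the 82 genes, HNRNPC, RBM17 and RBM23, and wholly below for none, where 5.90% and 4.91% of all genes did so. RBM17, a U2-associated factor also called SPF45, was at 16.8, 17.8 and 17.3 RPKM with OTUB2 and 15.4, 15.9 and 16.4 RPKM with the vector, a log2 fold change of 0.12. These genes were picked after their values were seen. The 95% intervals show what changes the data allow: for all 82 genes they lay within a 2-fold change in either direction, and for 77 of the 82 within 1.5-fold.

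Between SNX29P2 overexpression and the vector, again 0 of the 82 genes passed, beside 0.0363% of all genes, 6 in all. Voom on recovered reads called 0 as well, with 8 of the 82 at an unadjusted p under 0.05, beside 1345 of all 16533 genes. The vector libraries are the same as in the comparison with OTUB2, so the values of both are not independent. More of the values were positive here: 64 of 82, 78.0% beside 53.6% of all genes, with 17 of 21 HNRNP, 10 of 11 SRSF, 8 of 10 SF1 and SF3 and 23 of 32 RBM genes among them. The medians were 0.11 for HNRNP, 0.11 for SRSF, 0.06 for RBM and 0.04 for SF1 and SF3 genes, and 0.07 for all 82 beside 0.01 for all genes tested. Without vector replicate 2 the HNRNP median was 0.04, the SRSF median 0.06 and the SF1 and SF3 median 0.01, with 15 of 21, 9 of 11 and 6 of 10 positive. Without SNX29P2 replicate 1 the SRSF median was 0.04 with 8 of 11 positive, and without the libraries numbered 2 the HNRNP median was 0.03 and the RBM median 0.03. Summed over the 89 genes, the level was 3446, 3512 and 3407 RPKM with SNX29P2 and 3278, 3297 and 3365 RPKM with the vector, so each SNX29P2 library lay above each vector library. The OTUB2 libraries held 3353, 3418 and 3388 RPKM and overlapped both. In bulk RNA, fewer cells with a message and less of it per cell cannot be told apart. Part of the median rested on the libraries numbered 2: without them it was 0.04, and without vector replicate 2 alone it was 0.05, with 62 and 59 of 82 positive.

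**Figure D3:**
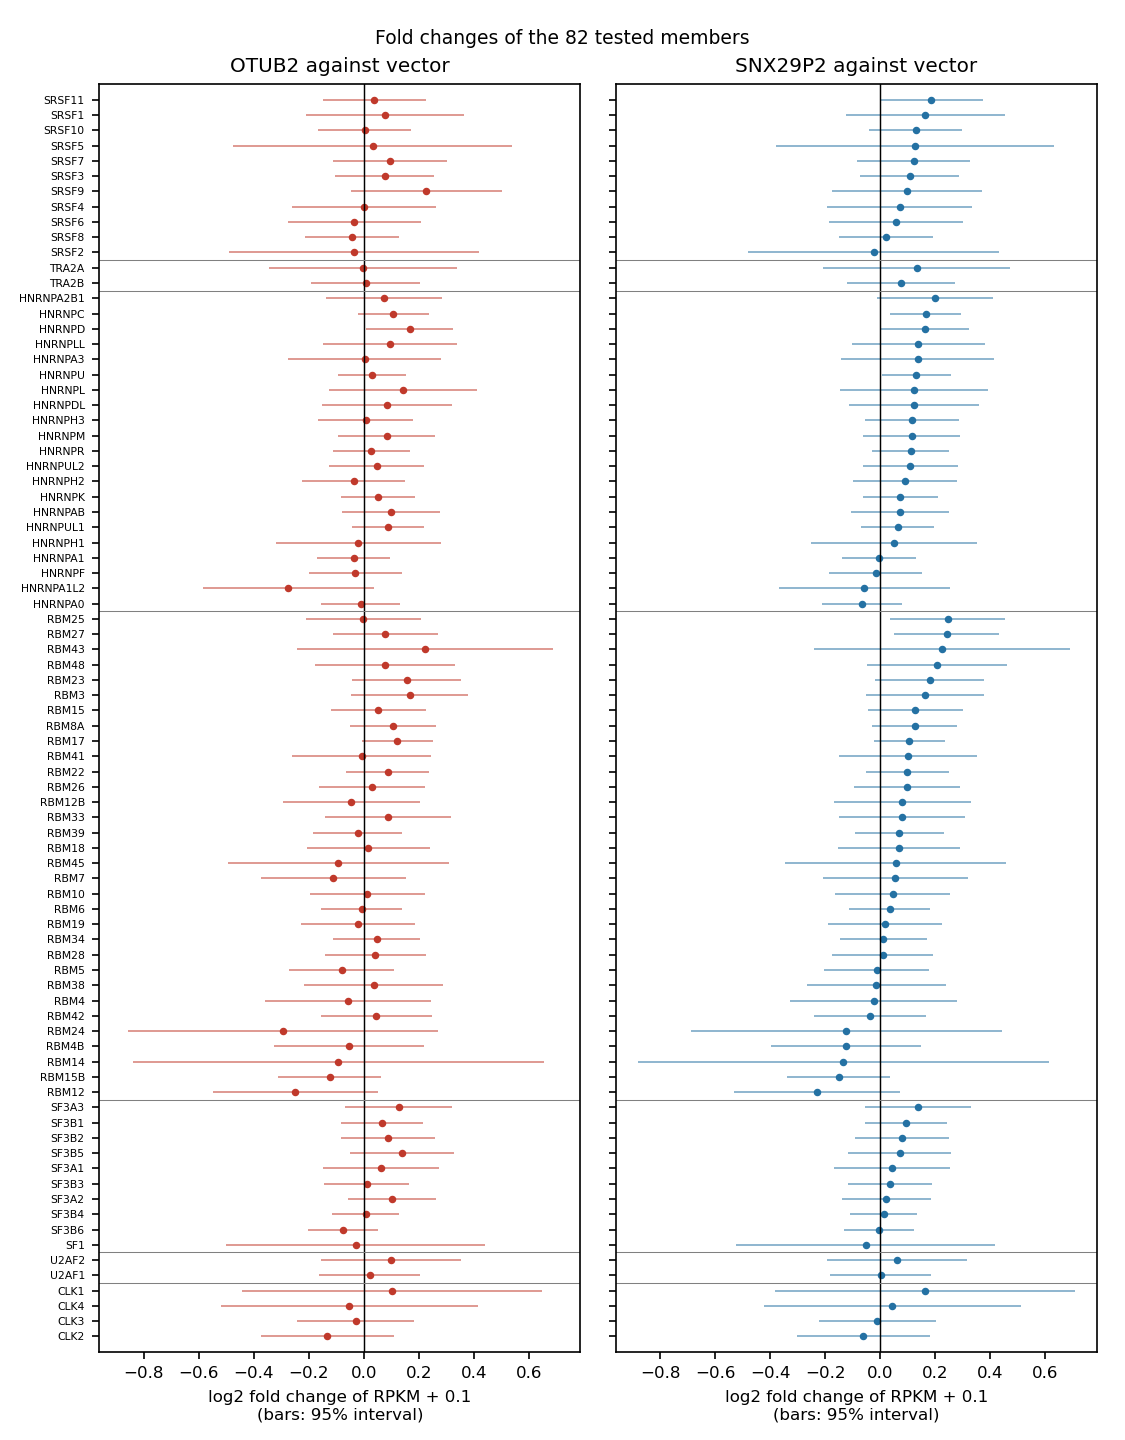
Log2 fold change of RPKM + 0.1 for each of the 82 tested genes, with OTUB2 against the vector left and SNX29P2 against the vector right; points are estimates, bars 95% intervals, and grey lines part the families. Points on the right lie mostly above 0 with a median of 0.07, and nearly all bars cross 0 in both panels.

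Of the 82 genes, 5 had an unadjusted p under 0.05, where 8.21% of all genes had one, 4.13% higher and 4.09% lower, and all 5 values were positive. They were HNRNPC, RBM27, RBM25, HNRNPU and HNRNPD, of which HNRNPC and HNRNPU were picked after their values were seen. HNRNPC (chromosome 14, 21209136 to 21269494), which binds uridine tracts, was at 104, 99.6 and 99.2 RPKM with SNX29P2 and 93.5, 90.6 and 86.0 RPKM with the vector. The groups did not overlap, but the log2 fold change was 0.16 (95% interval 0.04 to 0.29) and the limma adjusted p 0.543.

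RBM25 (chromosome 14, 73058436 to 73123898), a partner of the U1 particle, was at 11.1, 14.3 and 12.96 RPKM with SNX29P2 and 10.6, 10.9 and 10.6 RPKM with the vector, with a log2 fold change of 0.24 (limma adjusted p = 0.553). Its OTUB2 libraries, at 10.1, 11.2 and 10.8 RPKM, overlapped those of the vector. RBM27 (chromosome 5, 146203600 to 146289132) was at 9.15, 9.44 and 10.3 RPKM with SNX29P2 and 8.71, 7.45 and 8.27 RPKM with the vector (log2 fold change 0.24, limma adjusted p = 0.543). For RBM27, 45.4% of its exon bases also belong to another row on the same strand. HNRNPU, a scaffold-attachment factor of the nucleus, averaged 78.4 ± 0.958 RPKM with SNX29P2 and 71.7 ± 3.34 with the vector, and HNRNPD 54.4 ± 0.305 and 48.7 ± 3.82 RPKM (SD, n = 3). The SNX29P2 libraries lay wholly above the vector libraries for 9 of the 82 genes and wholly below for none, where 6.13% and 5.53% of all genes did so.

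Other members at the ends of the order were not called either. RBM43 and the minor-intron splicing factor RBM48 had log2 fold changes of 0.22 and 0.21, and RBM12, RBM15B, RBM14 and RBM4B had -0.23, -0.15, -0.14 and -0.13. The value of RBM14 turned positive, to 0.10 without SNX29P2 replicate 3 and to 0.15 without vector replicate 2. All 95% intervals lay within a 2-fold change here too, 77 of 82 within 1.5-fold.

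The SNX29P2 values went with base composition. Across the 82 genes the Spearman correlation of the log2 fold change with the GC content of the longest coding transcript was -0.44 for SNX29P2 against the vector and 0.13 for OTUB2 against the vector, and across all 16329 tested genes with a known GC content it was -0.42 and -0.10 (across genes of the same libraries, which are not independent). The families are rich in low-GC messages, with a median of 44.8% beside 48.6% for all tested genes. In the fifth of genes with the lowest GC content, up to 41.2%, the median log2 fold change with SNX29P2 was 0.12 over 3266 genes and 0.11 over the 26 members in it, of which 24 were positive. In the fifth with the highest GC content the medians were -0.08 over all genes and 0.00 over the 6 members in it. Taken relative to the median of all genes in the same GC group, the member median was 0.03 and 50 of 82 lay above 0. The part of base composition in the SNX29P2 values was not tested further.

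**Figure D4:**
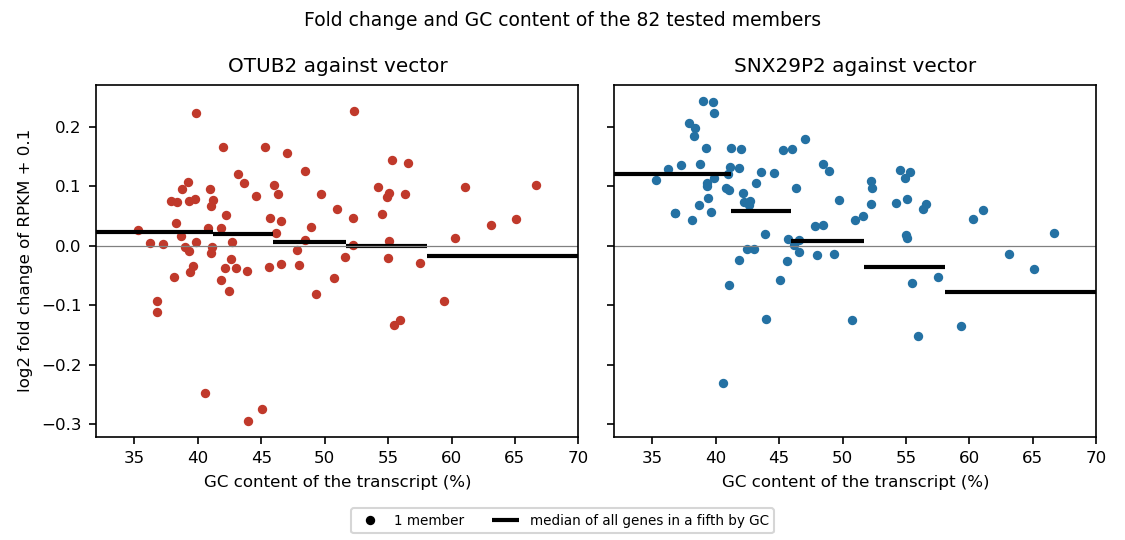
GC content of the longest coding transcript (x, %) against the log2 fold change of RPKM + 0.1 (y) for the 82 tested genes, with OTUB2 against the vector left and SNX29P2 against the vector right; black bars are medians of all tested genes in 5 equal groups by GC content. On the right both points and bars fall with GC content, the bars from 0.12 at the lowest GC content to -0.08 in the highest, and on the left the bars stay between 0.02 and -0.02.

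Set against each other, OTUB2 and SNX29P2 libraries differed for 0 of the 82 genes, beside 0.0242% of all genes, 4 in all, and voom on recovered reads also called 0. The log2 fold change of OTUB2 against SNX29P2 was positive for 23 of 82, with a median of -0.03 beside -0.00 over all genes. RBM25 was lowest at -0.25 (95% interval -0.45 to -0.04), the 1 member with an unadjusted p under 0.05, where 2.43% of all genes had one, 1.28% higher and 1.15% lower, and its limma adjusted p was 1.00. HNRNPA1L2, RBM7 and RBM27 followed at -0.22, -0.17 and -0.16, and SRSF9 was highest at 0.13, above RBM42 at 0.08, SF3A2 at 0.08 and RBM4B at 0.07. Of the 82 genes, 0 were wholly above and 7 wholly below, beside 4.30% and 4.05% of all genes. The Spearman correlation of this fold change with GC content was 0.65 across the 82 genes, and 0.42 across all tested genes.

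The rest of the splicing machinery, taken as lists of genes, gave no call for OTUB2 or SNX29P2 either. Of 34 core particle proteins, 30 were positive with OTUB2 (median 0.10, 3 with an unadjusted p under 0.05) and 28 with SNX29P2 (0.08, 4 such genes). SNRPC, a U1 protein and the smallest p of that list with OTUB2, was at 128, 116 and 120 RPKM with OTUB2 and 107, 96.3 and 111 RPKM with the vector (log2 fold change 0.21, limma adjusted p = 0.704). Of 30 catalytic-complex proteins and helicases, 22 and 26 were positive with OTUB2 and with SNX29P2, of 26 SR-related and exon-junction proteins 16 and 22, of 16 kinases, phosphatases and transport factors of SR proteins 9 and 13, of 36 other splicing regulators 26 and 32, of 10 nonsense-mediated decay factors 5 and 7, and of 9 proteins of the minor spliceosome 7 and 6. The medians of these lists ran between 0.00 and 0.06 with OTUB2 and between 0.04 and 0.15 with SNX29P2. An unadjusted p under 0.05 was found for 6 and 8 of their genes, where 6.73% and 8.21% of all genes had one. Of all genes tested, 52.0% were positive with OTUB2 and 53.6% with SNX29P2. With SNX29P2 the smallest p of each list belonged to LSM3 at 0.22, CWC22 at 0.13, LUC7L2 at 0.14, TNPO3 at 0.10, MBNL1 at 0.22, UPF3A at 0.15 and ZCRB1 at 0.25 on the log2 scale, in the order of the lists above. With OTUB2 the corresponding genes after SNRPC were PPIL1 at 0.17, LUC7L2 at 0.13, PPP1CA at 0.16, KHDRBS1 at 0.17, SMG6 at -0.11 and ZCRB1 at 0.24. Without vector replicate 2, 27 and 21 of the 34 core particle proteins were positive with OTUB2 and with SNX29P2 (medians 0.06 and 0.03), and 14 and 19 of the 30 catalytic-complex proteins. Heat shock genes had medians of 0.24 and 0.28 and G2/M genes of 0.29 and 0.32 in these comparisons, with 15 of 16 and 30 of 30 positive in each and 0 called by limma; 4 and 7 heat shock genes and 6 and 9 G2/M genes had an unadjusted p under 0.05. Without vector replicate 2 the G2/M medians were 0.08 and 0.10, with 25 and 26 of 30 positive. Without vector replicate 1 the heat shock median with SNX29P2 was 0.18. Their part in the small positive medians of the splicing genes was not tested.

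More of these genes were called between library numbers than between groups. Between the libraries numbered 2 and those numbered 1 and 3, in a limma fit with group and number as terms, 6 of the 82 genes were called, 5 higher and 1 lower, where 1.88% of all genes were called, 1.23% higher and 0.647% lower. Number 2 was picked out with earlier results of these data known. RBM14, CLK1, SF1, SRSF2 and RBM4 were higher and SRSF5 was lower in the libraries numbered 2, and for all 6 this held in each of the 3 groups. An unadjusted p under 0.05 was found for 30 of the 82 genes, beside 22.7% of all genes. The median over the 82 was -0.02 beside 0.01, and 0.01 without vector replicate 2, so the shift was not in 1 direction. In number 2, 29 of the 82 were higher and 31 lower in every group. The same count was not made over all genes, so it cannot be read as particular to the members. Libraries numbered 2 lay wholly apart for 22 of the 82, beside 11.4% of all genes, namely above for 11, beside 6.79%, and below for 11, beside 4.60%.

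To show where transcription of the genes called between numbers starts, the 250 bases before the start annotated in RefSeq are printed for the 5 of them found in the RefSeq promoter table (GRCh38.p14), each 5′ to 3′ on the strand of the gene. The windows are chr11:66616380-66616629 (plus) for RBM14, chr11:66638453-66638702 (plus) for RBM4, chr11:64778543-64778792 (minus) for SF1, chr2:200864659-200864908 (minus) for CLK1 and chr14:69766892-69767141 (plus) for SRSF5. RefSeq's starts differ from the outer ends of the table's rows: the SRSF5 window and nearly all of the SF1 window lie inside their rows, and a part of each of the others does. Capitals mark matches, on either strand, to the CCAAT box, to the GC box (GGGCGG) or to an ETS-like word (CGGAAG).
RBM14: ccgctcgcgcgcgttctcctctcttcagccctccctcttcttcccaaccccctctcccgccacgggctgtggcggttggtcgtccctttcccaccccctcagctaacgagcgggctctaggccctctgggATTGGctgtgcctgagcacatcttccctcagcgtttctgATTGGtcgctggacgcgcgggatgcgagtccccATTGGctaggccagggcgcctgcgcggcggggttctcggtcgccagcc
RBM4: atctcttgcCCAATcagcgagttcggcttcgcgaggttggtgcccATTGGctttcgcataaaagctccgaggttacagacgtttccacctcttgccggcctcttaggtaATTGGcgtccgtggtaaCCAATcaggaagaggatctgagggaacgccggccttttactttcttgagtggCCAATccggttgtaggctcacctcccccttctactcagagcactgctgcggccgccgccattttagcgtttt
SF1: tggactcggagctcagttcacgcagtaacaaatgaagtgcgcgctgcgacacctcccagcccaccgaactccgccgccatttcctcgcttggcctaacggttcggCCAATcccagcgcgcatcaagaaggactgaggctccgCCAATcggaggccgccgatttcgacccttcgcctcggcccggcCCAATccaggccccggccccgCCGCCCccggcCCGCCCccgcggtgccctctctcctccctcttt
CLK1: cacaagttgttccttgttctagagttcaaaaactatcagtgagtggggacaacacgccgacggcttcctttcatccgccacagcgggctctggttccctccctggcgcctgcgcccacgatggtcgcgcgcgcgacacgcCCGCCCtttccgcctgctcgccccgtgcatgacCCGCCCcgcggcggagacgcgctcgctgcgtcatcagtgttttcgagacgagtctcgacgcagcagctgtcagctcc
SRSF5: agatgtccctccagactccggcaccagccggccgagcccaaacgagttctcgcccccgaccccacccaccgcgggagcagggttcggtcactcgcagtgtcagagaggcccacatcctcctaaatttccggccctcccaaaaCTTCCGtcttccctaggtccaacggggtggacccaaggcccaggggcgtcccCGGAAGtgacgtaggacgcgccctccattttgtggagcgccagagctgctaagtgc
CCAAT occurred 3 times in RBM14, 5 times in RBM4 and 3 times in SF1. The GC box occurred 2 times in SF1 and 2 times in CLK1, and the ETS-like word 2 times in SRSF5. Of the 80 member promoters in the table, 37 held a CCAAT box, which is 46.2%, where 32.01% of all 35116 promoters did. The GC box was in 52 of the 80, 65.0% beside 42.6%, and the ETS-like word in 30, 37.5% beside 16.5%. The TATA word (TATAAA) was in 7, beside 10.7% of all promoters. The cAMP-response word (TGACGTCA) was in 3, beside 1.65%, and the heat shock word (GAANNTTC) in 5, beside 5.78%. No motif searched contains another. The member windows had a median GC content of 64.2% and all promoters 58.0%, and the shares were not corrected for that. The 35116 promoters were not limited to expressed or protein-coding genes, and only members were reduced to a single window per gene. The shares therefore cannot be read as particular to these families.

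RBM14 (chromosome 11, 66616582 to 66627347, plus strand) had the largest difference of the 82. In the OTUB2 group it was at 59.3 RPKM in number 2 and 36.5 and 28.6 RPKM in numbers 1 and 3, in the SNX29P2 group at 54.9 against 37.2 and 27.7 RPKM, and in the vector group at 62.8 against 34.7 and 34.4 RPKM. Number 2 averaged 59.0 ± 3.99 RPKM (SD, n = 3) and numbers 1 and 3 33.2 ± 4.04 RPKM (SD, n = 6), which is 0.84 on the log2 scale (SE 0.070, limma adjusted p = 0.0197). RBM4 (chromosome 11, 66638617 to 66666682, plus strand), a regulator of alternative splicing and translation that neighbours RBM14, averaged 27.0 ± 1.25 RPKM in number 2 and 21.9 ± 1.37 RPKM in numbers 1 and 3 (log2 fold change 0.30, SE 0.052, limma adjusted p = 0.0456). A readthrough row, RBM14-RBM4, was called as well, at 0.45 (limma adjusted p = 0.0336). Of its bases, 78.7% lie in exons of RBM14 or RBM4, and it covers 32.6% of the RBM4 and 11.0% of the RBM14 exon bases, so these rows are not independent and the RBM4 value is uncertain.

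CLK1 (chromosome 2, 200853009 to 200864744, minus strand), the kinase that releases SR proteins for splicing, was at 11.6 RPKM in number 2 and 8.97 and 6.95 RPKM in numbers 1 and 3 of the OTUB2 group. In the SNX29P2 group it was at 12.6 against 8.24 and 7.94 RPKM, and in the vector group at 10.8 against 8.21 and 6.57 RPKM. Number 2 exceeded every other library, by 0.58 on the log2 scale in the mean (SE 0.063, limma adjusted p = 0.0235). Among its relatives, CLK4 had 0.40, CLK3 -0.07 and CLK2 -0.19 (limma adjusted p = 0.109, 0.547 and 0.172), so CLK1 alone of the 4 was called, and a difference between CLK genes was not tested.

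SF1 (chromosome 11, 64764606 to 64778786, minus strand), the branch-point binding protein, was at 83.5 RPKM in number 2 and 70.1 and 62.5 RPKM in numbers 1 and 3 of the OTUB2 group, at 82.8 against 69.9 and 60.2 RPKM in the SNX29P2 group and at 105 against 61.5 and 60.4 RPKM in the vector group. Its log2 fold change was 0.49 (SE 0.088, limma adjusted p = 0.0482). Number 2 lay above every other library, most of all in the vector group. The SF3 subunits that follow SF1 at the branch site were not called: 8 of the 9 had negative values, from SF3A1 at -0.17 to SF3B4 at -0.06, and SF3B6 had 0.01, with 4 of the 9 at an unadjusted p under 0.05. U2AF2 and U2AF1 had -0.20 and -0.02 (limma adjusted p = 0.155 and 0.866).

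The SR proteins moved in both directions. SRSF2 (chromosome 17, 76734115 to 76737374, minus strand) was at 163 RPKM in number 2 and 128 and 122 RPKM in numbers 1 and 3 of the OTUB2 group, at 158 against 139 and 118 RPKM in the SNX29P2 group and at 196 against 127 and 110 RPKM in the vector group, a log2 fold change of 0.47 (SE 0.080, limma adjusted p = 0.0421). MFSD11 on the opposite strand covers 36.7% of its exon bases, and its own row had a log2 fold change of 0.41 (limma adjusted p = 0.0741). Without a stated strand setting, reads of the pair cannot be told apart. SRSF5 (chromosome 14, 69726900 to 69772005, plus strand) was at 24.2 RPKM in number 2 and 35.2 and 32.7 RPKM in numbers 1 and 3 of the OTUB2 group, at 25.8 against 37.5 and 35.2 RPKM in the SNX29P2 group and at 21.3 against 38.1 and 32.2 RPKM in the vector group. It fell by 0.56 on the log2 scale (SE 0.058, limma adjusted p = 0.0221), with number 2 below every other library, and its row shares no exon base with another. SRSF1 and SRSF6 had 0.22 and -0.13, and TRA2A and TRA2B 0.30 and 0.13, none of them called.

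**Figure D5:**
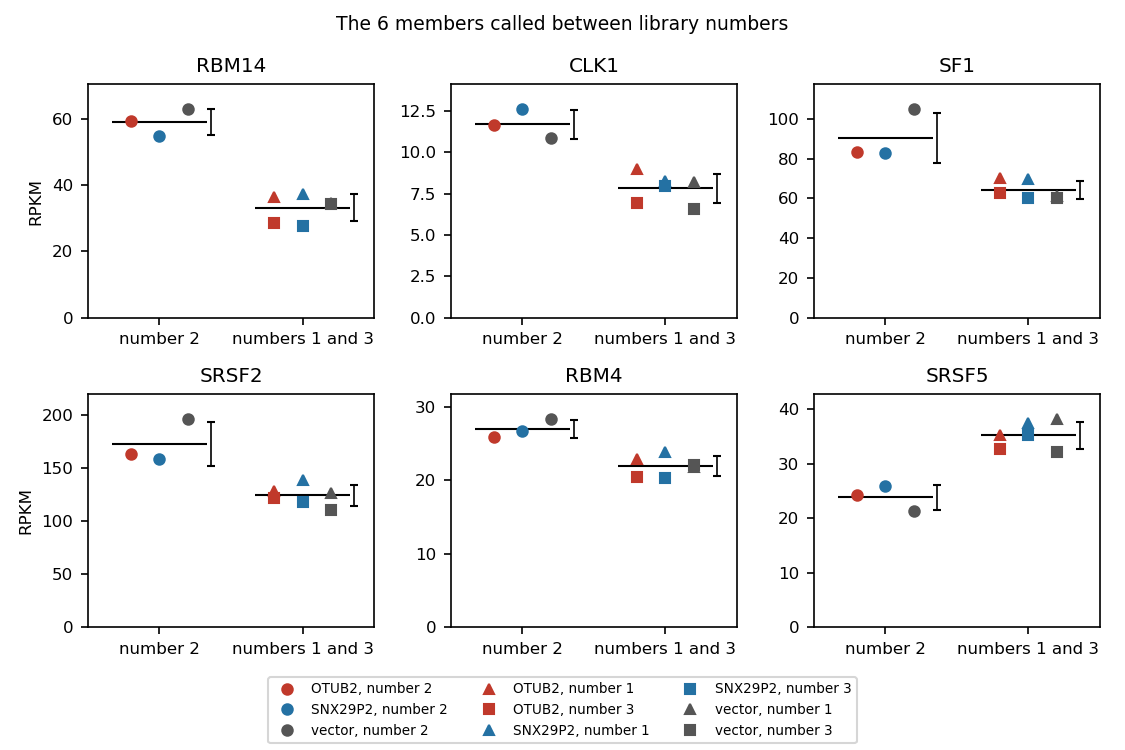
RPKM of the 6 genes called between library numbers, with the 3 libraries numbered 2 on the left and the 6 numbered 1 and 3 on the right of each panel; colour gives the group, shape the number, lines the means and bars 1 SD. In RBM14, CLK1, SF1, SRSF2 and RBM4 each library numbered 2 lies above all others, and in SRSF5 below.

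Just outside the threshold lay HNRNPH1 at 0.30 (limma adjusted p = 0.0502), chosen after its value was seen, SRSF4 at -0.26 (0.0528) and HNRNPL at -0.26 (0.0841). HNRNPL, which binds CA repeats, was at 49.1 RPKM in number 2 and 54.6 and 54.8 RPKM in numbers 1 and 3 of the OTUB2 group, at 48.2 against 55.5 and 52.8 RPKM in the SNX29P2 group and at 38.8 against 51.6 and 54.4 RPKM in the vector group. Of the 75-base words of HNRNPL, 27.8% recur in other genes. HNRNPDL, a relative of HNRNPD, had -0.21 (limma adjusted p = 0.108). Of the 21 HNRNP genes 16 were negative, with a median of -0.05. That rested on the vector group: within the OTUB2, SNX29P2 and vector groups the median of number 2 minus numbers 1 and 3 was -0.00, -0.01 and -0.12, and without vector replicate 2 it was -0.01 with 12 of 21 negative. Without vector replicate 1 it was -0.02, and without OTUB2 replicate 2 -0.09.

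The 6 calls depended on the libraries in the fit. Without OTUB2 replicate 1, 2 or 3, SNX29P2 replicate 2 or 3, or vector replicate 2, limma called 0 of the 82 genes and 2 or 3 of all genes. In these fits 20 to 28 of the 82 had an unadjusted p under 0.05, beside 2508 to 3349 of all 16533 genes. RBM14 and CLK1 were called without SNX29P2 replicate 1, RBM14 without vector replicate 3, and 12 genes, the 6 among them, without vector replicate 1. Of all genes, 14, 5 and 1168 were called in these fits, in the same order, beside 311 with all libraries. Across these 9 fits the log2 fold changes ran from 0.78 to 0.88 for RBM14, 0.54 to 0.61 for CLK1, 0.34 to 0.57 for SF1, 0.34 to 0.55 for SRSF2, 0.27 to 0.32 for RBM4 and -0.60 to -0.49 for SRSF5. With voom on reads recovered from the table, 13 of the 82 genes were called, again with the 6 among them, beside 1186 of all 16533 genes. With median-of-ratios scaling 4 were called, among them CLK1, RBM14 and SRSF5 but not SF1, SRSF2 or RBM4, beside 253 of all genes. Without a filter on low values 0 of the 89 genes and 7 of all 32997 were called. Then 31 of the 89 had an unadjusted p under 0.05, beside 4538 of the 32997.

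Elsewhere in the splicing machinery, 3 of 36 other splicing regulators were called, 8.33% beside 1.88% of all genes. All were higher in number 2: SFPQ at 0.43, PSPC1 at 0.36 and TARDBP at 0.21 (limma adjusted p = 0.0262, 0.0387 and 0.0421). SFPQ and PSPC1 are DBHS proteins of paraspeckles, and TARDBP encodes TDP-43. NONO, another DBHS protein of this list, went the other way at -0.10 and was not called (limma adjusted p = 0.155). SFPQ was at 82.2 RPKM in number 2 and 66.6 and 62.0 RPKM in numbers 1 and 3 of the OTUB2 group, at 87.6 against 66.9 and 65.0 RPKM in the SNX29P2 group and at 91.6 against 69.6 and 59.2 RPKM in the vector group. No gene was called in the other 6 splicing and decay lists by limma, although 13 of 34 core particle proteins and 4 of 30 catalytic-complex proteins had an unadjusted p under 0.05, all lower in number 2, and the medians of these lists were -0.09 and -0.05, the second -0.03 without vector replicate 2 or without vector replicate 3. The number with such a p was 6 of 26 SR-related proteins, 8 of 16 kinases and phosphatases, 2 of 10 decay factors and 1 of 9 minor spliceosome proteins. Of all 16533 genes, 22.7% had such a p, and 1612 of them were lower in number 2. G2/M genes had a median of -0.21, with 28 of 30 negative. Within the OTUB2, SNX29P2 and vector groups the median of number 2 minus numbers 1 and 3 was -0.02, -0.02 and -0.55, and without vector replicate 2 it was -0.03 with 17 of 30 negative. Heat shock genes had -0.10, with 12 of 16 negative, namely -0.17, -0.19 and 0.06 within the same groups and -0.18 to -0.05 with 1 library left out, and HSPA8, with the smallest p among them, had 0.42 (limma adjusted p = 0.0705). COL1A1, a stromal marker, was called higher, at 0.37 (limma adjusted p = 0.0350). The part of these in the values of the splicing genes was not tested.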

How the data were processed

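RNA of 9 ES-2 libraries, 3 in each of 3 groups, was sequenced, and the groups were taken from the genotype label. The deposited table holds RPKM values of 32997 genes. The submitters' processing notes name GRCh38; which aligner, counter, annotation and strand setting made the counts was not given in the sources used here. Each value times gene length gave whole reads, within 0.05 of a read for 100% of values below 1000 reads, so depth was recovered. The 16533 genes that reached 0.5 RPKM in 3 or more libraries were fitted on log2(RPKM + 0.1) with limma 3.58.1 (R 4.3.3), trend on, over all 9 libraries. The 3 group comparisons used group alone and the comparison of library numbers used group and number. Calls had a Benjamini-Hochberg adjusted p under 0.05. A fold change on this scale understates the change of low genes. The scripts were tested on simulated data. Alternatives were other pseudocounts, filters and scalings, voom on recovered reads, and leaving out libraries; for families and lists the last was chosen after seeing the data. Python 3.11.15 was used for other steps. The members and lists were chosen with earlier results of these data known. Named genes were members called in any comparison, the 2 highest of each family, the 4 highest and 4 lowest fold changes of each comparison among members averaging at least 1 RPKM, and all CLK, TRA2, U2AF, SF1 and SF3 genes. Exon overlaps came from the exon coordinates of the deposited table itself. Shared 75-base words and GC content came from GENCODE 29, whose gene coordinates equalled those of the table for 83 of the 89 members.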

Additional observations from a re-analysis of the deposited data

How the results depend on the processing

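In the 3 group comparisons limma called 0 of the 82 members under every alternative tried. The median log2 fold change of the members was -0.0012 for OTUB2 against the vector without the libraries numbered 2, beside 0.03 with all, and ran from 0.01 to 0.05 when 1 library was left out. For SNX29P2 against the vector it was 0.035 without the libraries numbered 2, beside 0.07, and ran from 0.048 (without vector replicate 2) to 0.10 with 1 library left out, and for OTUB2 against SNX29P2 from -0.05 to -0.03. For RBM14 in SNX29P2 against the vector, the log2 fold change of -0.14 became 0.10 without SNX29P2 replicate 3 and 0.15 without vector replicate 2, within a range of -0.39 to 0.15 with 1 library left out. Between library numbers, 0 members were called without a filter on low values and 13 with voom, beside 6, and 0 to 12 with 1 library left out. Of all genes, 7 were called without a filter and 1186 with voom, beside 311, and 2 to 1168 with 1 library left out. The members' median ran from -0.042 to 0.0076. The cause was not tested. Same-numbered libraries correlated in their deviations from the group means by -0.02 to 0.27 over all genes, not all above 0.1, so the numbers were not taken to pair samples. Over the 82 members alone all 9 pairs lay above 0.1, from 0.14 to 0.91, and each of the 9 libraries correlated best with its own number over all genes, as a hint from the data. With the replicate block, 0 members were called in the 3 group comparisons, and 7, 8 and 2 of the 82 had an unadjusted p under 0.05, beside 1, 5 and 1. Of all 16533 genes, 1934, 2272 and 778 had one with the block, beside 1112, 1358 and 402, so the rise was not particular to the members. With 3 libraries a group, the median SE of a member's log2 fold change was 0.0894.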
